A study of Drosophila melanogaster with 2 samples.

Results

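The eggshell and yolk genes examined here are 32 genes of *Drosophila melanogaster* that are known mainly from the follicle cells, the somatic epithelium around the developing oocyte, apart from *fs(1)N*, which the germ line makes. They were listed by name: 3 yolk proteins, 8 genes of the vitelline membrane, 11 of the chorion, 3 of eggshell crosslinking, 4 that lay patterning or activation cues into the eggshell, and 3 of the follicle cell surface and matrix. All 32, called the members below, were found by their own names among the 16863 genes of the deposited table. RNA was measured in mature (stage 14) oocytes that had not yet been activated, as 1 library from a ME31B immunoprecipitate and 1 library from the input lysate it was taken from. Both libraries come from oocytes of a large culture of flies labelled as w1118 with eGFP-tagged ME31B, whereas the methods name w1118 flies without the tag for this isolation. The label of the immunoprecipitate names no antibody. According to the methods it was anti-GFP, while the protocol in the labels leaves anti-GFP and IgG possible, so each comparison with the input assumes that this library is the anti-GFP one. No control IgG library was analysed here, so RNA that sticks to the beads cannot be told apart from RNA bound through ME31B.

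The eggshell is built in layers around the oocyte. Follicle cells first secrete the vitelline membrane, a protein coat next to the oocyte surface, and then the chorion, the tough outer shell, whose proteins are later crosslinked. The main chorion genes lie in clusters that follicle cells amplify above the rest of the genome, so that much mRNA can be made shortly before the egg is laid. Yolk proteins come from the fat body and from follicle cells, and the oocyte takes them up through the receptor Yolkless. ME31B is a DEAD-box RNA helicase that, with TRAL and Cup, binds and represses maternal mRNAs in the germ line. Follicle cells also surround the oocyte at the end of oogenesis, so their mRNAs can enter a lysate of whole stage 14 oocytes. In such a bulk lysate, fewer follicle cells and less RNA per follicle cell cannot be told apart.

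Values are FPKM, fragments scaled by transcript length and by the number of mapped reads, as deposited by the authors. How many reads each library held was not stated in the labels or methods used here. Values below 0.5 FPKM were examined as a guide, but the most common ratio of immunoprecipitate to input among 1054 such genes, 0.973, was shared by 44 of them, too few to recover reads. Values near or below 1 FPKM may therefore rest on few reads, and no counting interval can be attached to them. With 1 library per condition, no difference below has a replicate check and no test was possible.

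The mRNAs of the 32 genes differed in level widely. In the immunoprecipitate, 5 of the 32 were listed at 0 and the highest had 309 FPKM. In the input, 3 were listed at 0 and the highest had 520.3 FPKM. The median member had 1.07 FPKM in the immunoprecipitate and 1.35 FPKM in the input, and 13 members were below 1 FPKM in both libraries. The 7 members with an input level of at least 10 FPKM were *Cp15*, *Cp18*, *Cp16*, *Cp19*, *Cp36* and *Cp38*, all structural chorion genes, and *fs(1)N*. Summed over all 32 genes, the level was 525.7 FPKM in the immunoprecipitate and 925.0 FPKM in the input, which is 0.0465% of all FPKM in the immunoprecipitate and 0.0862% in the input. Chorion mRNA made up most of these sums, and *Cp15* alone made up 58.7% in the immunoprecipitate and 56.2% in the input. Without *Cp15*, the sums were 217 FPKM in the immunoprecipitate and 405 FPKM in the input. Over all members, the ratio of the sums was 0.568, and without *Cp15* it was 0.536, so this ratio did not rest on *Cp15* alone. The chorion genes of the cluster at 66D, with *Cp15* among them, made up 80.5% in the immunoprecipitate and 84.3% in the input. The sums and their ratio therefore mostly describe that 1 cluster.

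**Figure D1:**
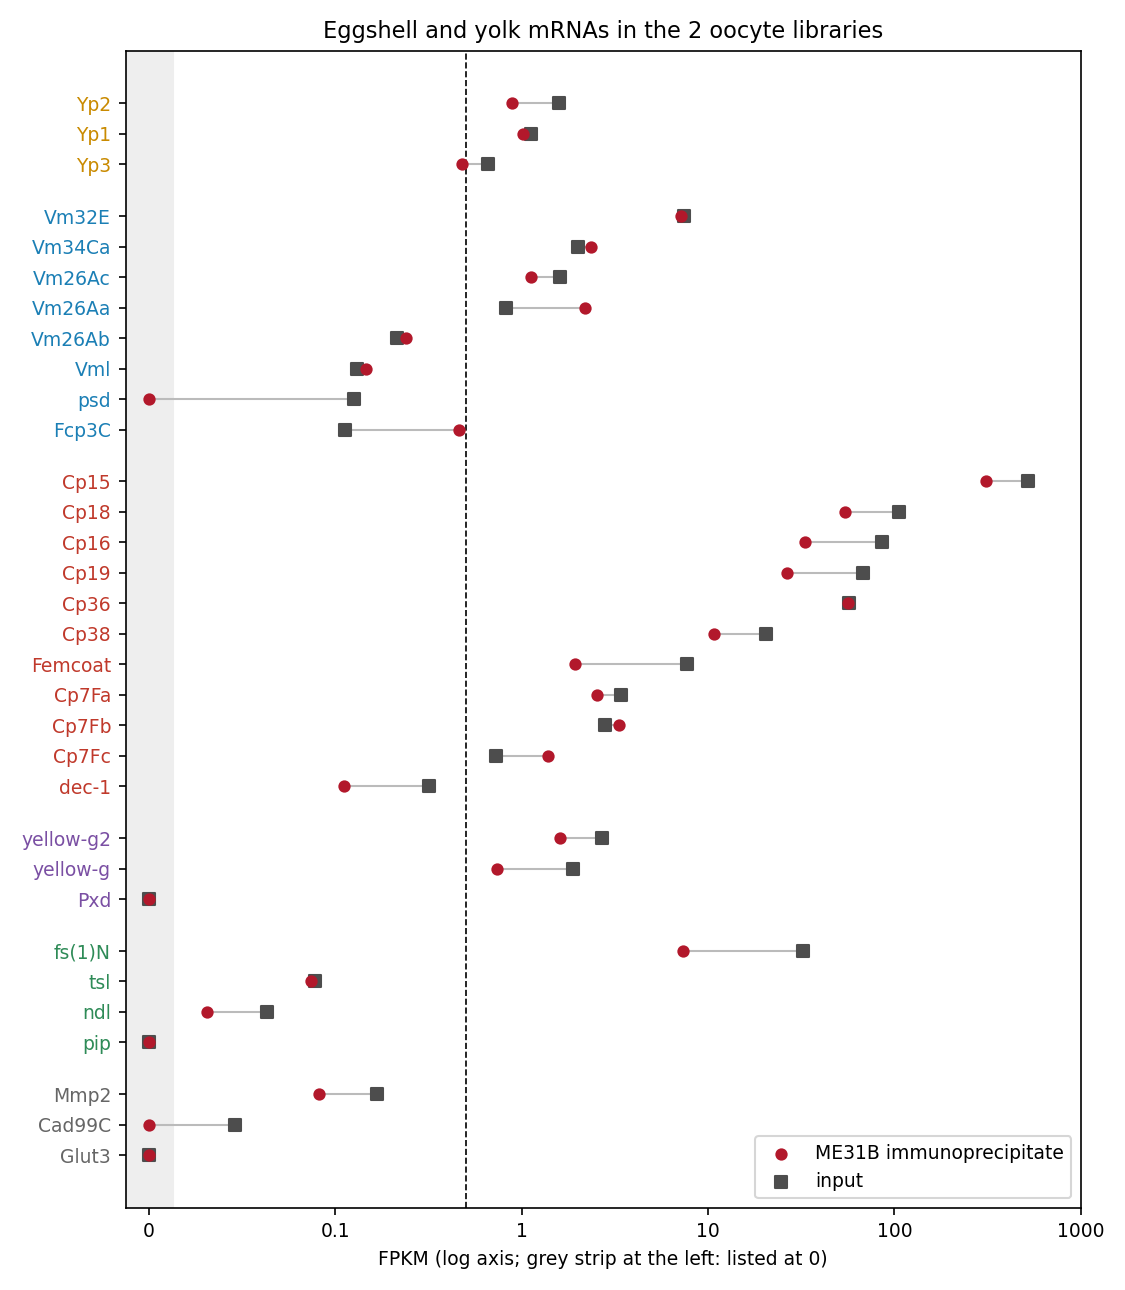
FPKM (log axis) of the 32 eggshell and yolk genes in the ME31B immunoprecipitate (red circles) and the input (grey squares), 1 library each, grouped by role from yolk at the top to follicle cell surface at the bottom. The dashed line marks 0.5 FPKM and the grey strip holds genes listed at 0. *Cp15* is the highest at 309 FPKM in the immunoprecipitate and 520.3 FPKM in the input, and *Pxd*, *pip* and *Glut3* are at 0 in both libraries.

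For binding relative to abundance, the immunoprecipitate FPKM was divided by the input FPKM, as the study did, for 6886 genes whose level exceeded 0.5 FPKM in each library. This occupancy is given on a log2 scale without a pseudocount. The median gene had an occupancy of 1.26, or 0.33 on the log2 scale, and values below are relative to that median gene unless stated. Among the eggshell and yolk genes, 19 passed the filter. Of the other 13, *Yp3* was above 0.5 FPKM only in the input and 12 were at or below it in both libraries, so no occupancy is given for them. A gene that passes in both libraries cannot have a very low value in either, and the counts below describe only those 19.

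Most eggshell mRNAs that could be measured were recovered less than the median oocyte mRNA. Of the 19, 17 lay below the median gene and 2 above it. At least 2-fold below the median gene were 10 of them, against 15.2% of all 6886 genes, and at least 2-fold above it was 1, *Vm26Aa*, against 9.48% of all genes. The median over the 19 was −1.08 on the log2 scale, beside 0 for all genes by construction, with quartiles of all genes at −0.62 and 0.55. The 10 were 6 of 10 measured chorion genes, both measured crosslinking genes, *Yp2* and *fs(1)N*. The choice of zero matters here. Without centring on the median gene, which moves every value by 0.33, 5 of the 19 lay at least 2-fold below a ratio of 1, against 9.15% of all genes, and *Vm26Aa* lay 2-fold above it, against 20.3% of all genes. These 5 were *Cp16*, *Cp19*, *Femcoat*, *yellow-g* and *fs(1)N*, all among the 10. When both libraries were scaled to the same sum of FPKM, 7 of the 19 were 2-fold below, against 10.4% of all genes.

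**Figure D2:**
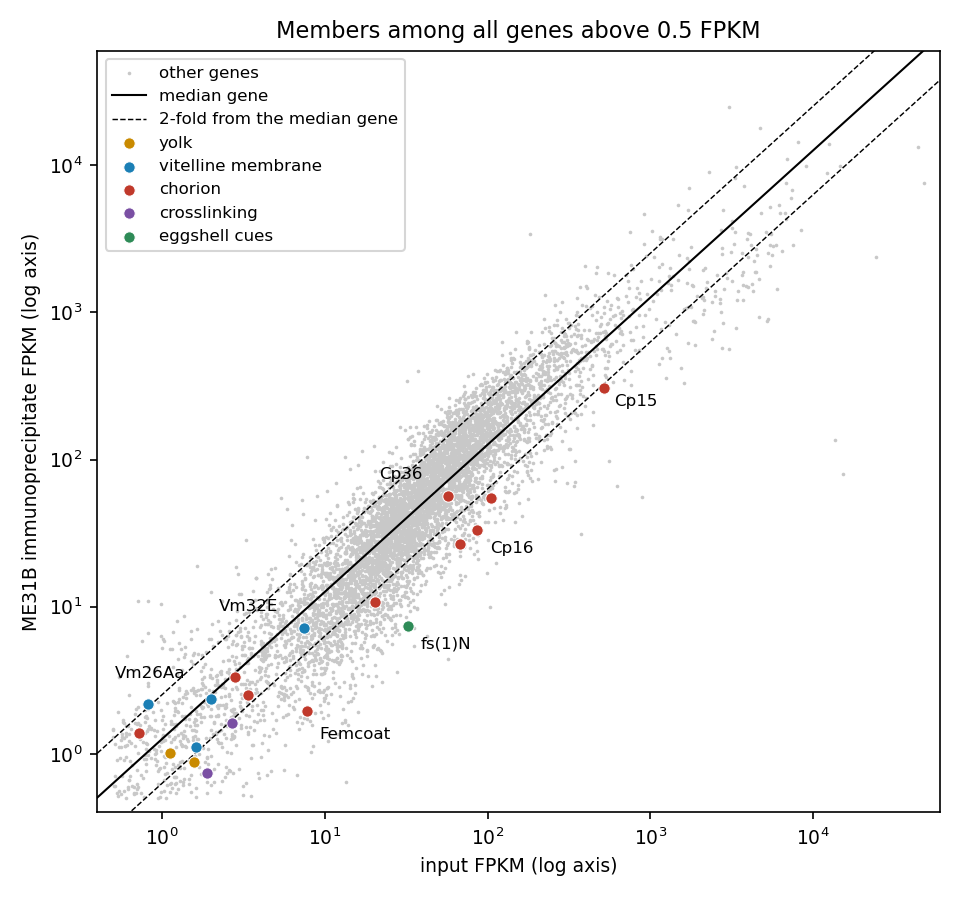
Immunoprecipitate FPKM against input FPKM (log axes) for 6886 genes above 0.5 FPKM in both libraries (grey points), with the 19 eggshell and yolk genes coloured by role. The solid line is the occupancy of the median gene, 1.26, and the dashed lines lie 2-fold from it. The abundant chorion mRNAs and *fs(1)N* lie along or under the lower dashed line, apart from *Cp36*.

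**Figure D3:**
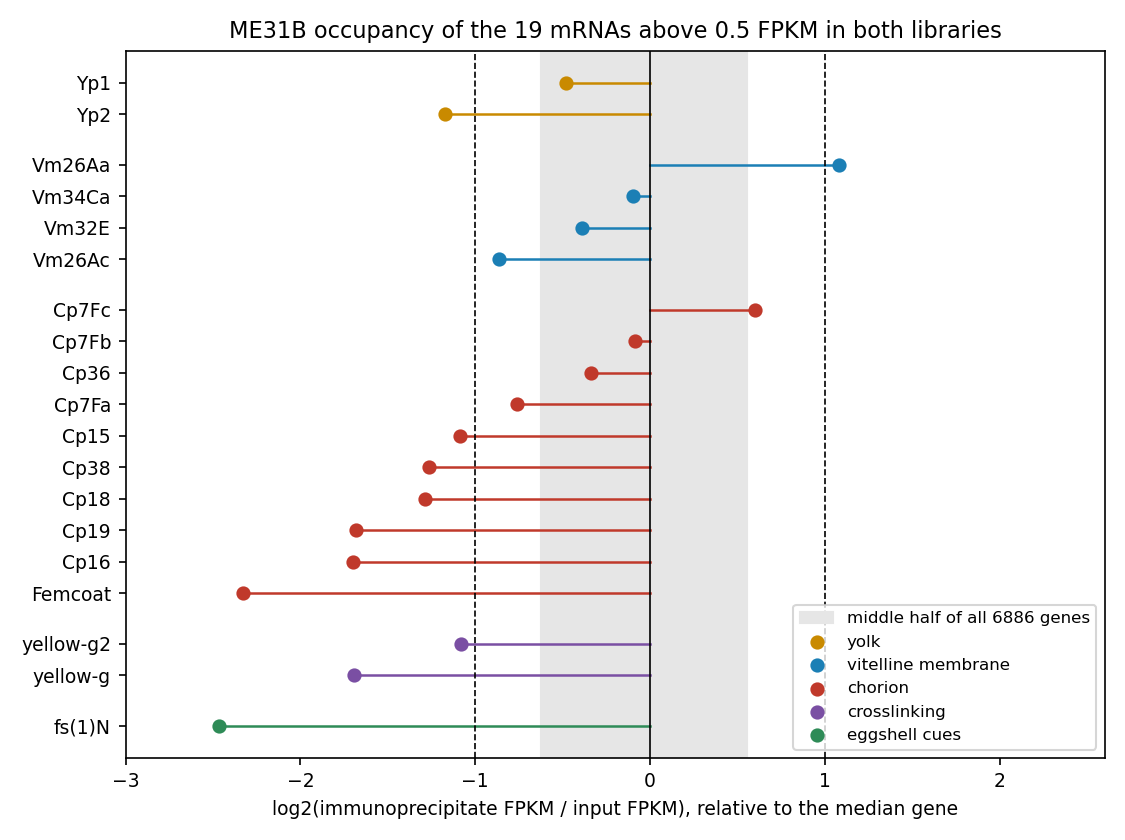
Log2 occupancy relative to the median gene for the 19 genes, by role, with 1 point per gene from 1 library pair. Dashed lines mark 2-fold and the grey band holds the quartiles of all genes, −0.62 to 0.55. *fs(1)N* at −2.46 and *Femcoat* at −2.33 are the lowest and *Vm26Aa* at 1.08 is the highest.

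Of the chorion genes, the 4 of the cluster at cytological position 66D were the most abundant in the input, while in the immunoprecipitate *Cp36* of the 7F cluster was above *Cp18*, *Cp16* and *Cp19*. They encode structural chorion proteins made in the last stages of oogenesis, and they lie within 5.81 kb of chromosome 3L, from 8726791 to 8732599 in dm6. *Cp15* had 309 FPKM in the immunoprecipitate and 520.3 FPKM in the input, rank 623 among all genes in the immunoprecipitate and rank 236 in the input. *Cp18* had 54.4 FPKM in the immunoprecipitate and 105 FPKM in the input. *Cp16* had 33.4 FPKM in the immunoprecipitate and 86.0 FPKM in the input. *Cp19* had 26.7 FPKM in the immunoprecipitate and 67.9 FPKM in the input. The order of these mRNAs was the same in both libraries, with *Cp15* far above the others and *Cp19* lowest. Relative to the median gene, occupancy was −1.09 for *Cp15*, −1.29 for *Cp18*, −1.68 for *Cp19* and −1.70 for *Cp16*. All 4 were thus more than 2-fold below the median gene, and *Cp16* and *Cp19* lay at percentiles 4.81 and 4.97 of all genes. On the uncentred scale *Cp15* was at −0.75 and *Cp18* at −0.95, no longer 2-fold below. Within the cluster, *Cp15* held 73.0% of the FPKM in the immunoprecipitate and 66.7% in the input, and *Cp16* held 7.88% in the immunoprecipitate and 11.0% in the input. The cluster summed to 423 FPKM in the immunoprecipitate and 779.7 FPKM in the input, a ratio of 0.543.

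The other chorion cluster, at 7F on the X chromosome from 8470888 to 8483311, gave lower levels and a wider spread of occupancy. *Cp36*, a major chorion protein, had 56.7 FPKM in the immunoprecipitate and 56.9 FPKM in the input. *Cp38*, its neighbour and also a major structural protein, had 10.7 FPKM in the immunoprecipitate and 20.5 FPKM in the input. The pair therefore differed: *Cp36* was at −0.34 relative to the median gene and *Cp38* at −1.26, and the level of *Cp36* over that of *Cp38* was 5.28 in the immunoprecipitate and 2.78 in the input. *Cp36* was the only one of the 6 abundant structural chorion mRNAs within 2-fold of the median gene, whereas on the uncentred scale, with *Cp36* at 0.00, *Cp15*, *Cp18* and *Cp38* were within 2-fold of a ratio of 1 as well. The 3 minor chorion genes of the cluster were low. *Cp7Fa* had 2.53 FPKM in the immunoprecipitate and 3.39 FPKM in the input. *Cp7Fb* had 3.33 FPKM in the immunoprecipitate and 2.80 FPKM in the input. *Cp7Fc* had 1.38 FPKM in the immunoprecipitate and 0.725 FPKM in the input. Their occupancies were −0.76, −0.08 and 0.60, so they straddled the median gene, and the sign of *Cp7Fb* turned on the uncentred scale, at 0.25. All 5 genes of this cluster lie within the span of *CG33223*, which had 1.12 FPKM in the immunoprecipitate and 0.197 FPKM in the input, so that reads of that gene could touch the low *Cp7F* values. The 5 genes summed to 74.7 FPKM in the immunoprecipitate and 84.2 FPKM in the input, a ratio of 0.886.

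The remaining chorion genes were scarce. *Femcoat*, an eggshell gene of the X chromosome needed for a normal chorion, had 1.94 FPKM in the immunoprecipitate and 7.73 FPKM in the input. At −2.33 it had the lowest occupancy of the chorion genes, at percentile 1.67 of all genes. *dec-1*, whose large precursor is cleaved into several eggshell proteins, had 0.112 FPKM in the immunoprecipitate and 0.318 FPKM in the input, both below the filter. *dec-1* acts when the vitelline membrane is laid down, earlier than the *Cp* genes. Its mRNA was below each of theirs in both libraries. The vitelline membrane gene *Vm32E*, in contrast, was above *Cp7Fa*, *Cp7Fb* and *Cp7Fc* in both. A link between timing and level was not tested.

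Vitelline membrane mRNAs were scarce in mature oocytes and, where measurable, spread around the median gene. *Vm32E* was the most abundant, with 7.15 FPKM in the immunoprecipitate and 7.45 FPKM in the input. Its span overlaps that of *Ca-beta*, which was listed at 0 in both libraries. *Vm34Ca* had 2.35 FPKM in the immunoprecipitate and 2.00 FPKM in the input. *Vm26Ac* had 1.12 FPKM in the immunoprecipitate and 1.61 FPKM in the input. *Vm26Aa* had 2.198 FPKM in the immunoprecipitate and 0.824 FPKM in the input. These 4 encode small secreted proteins of the vitelline membrane, and none had more than 7.45 FPKM. Relative to the median gene, *Vm26Aa* was at 1.08, *Vm34Ca* at −0.10, *Vm32E* at −0.39 and *Vm26Ac* at −0.86. Their median of −0.25 changed sign on the uncentred scale, at 0.09. *Vm26Aa* and *Vm26Ac* are neighbours at 26A on chromosome 2L and lay to either side of the median gene at levels where few reads may count. The value of *Vm26Aa* stayed between 0.50 and 1.42 under the other filters and scalings that kept the gene, and was at least 2-fold above the zero of the scale under 4 of these 6.

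The other 4 vitelline membrane genes were below the filter. *Vm26Ab* had 0.239 FPKM in the immunoprecipitate and 0.215 FPKM in the input. *Vml*, a vitelline membrane-like gene, had 0.147 FPKM in the immunoprecipitate and 0.132 FPKM in the input. *Fcp3C*, follicle cell protein 3C, had 0.459 FPKM in the immunoprecipitate and 0.113 FPKM in the input. *psd* (palisade), needed to organise the vitelline membrane, was listed at 0 in the immunoprecipitate and had 0.126 FPKM in the input.

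Crosslinking genes were at low levels. *yellow-g* and *yellow-g2*, members of the yellow family used for eggshell hardening, are close neighbours on chromosome 3L. *yellow-g2* had 1.61 FPKM in the immunoprecipitate and 2.71 FPKM in the input, an occupancy of −1.08. *yellow-g* had 0.737 FPKM in the immunoprecipitate and 1.89 FPKM in the input, an occupancy of −1.70. Both were lower in the immunoprecipitate, and *yellow-g2* was no longer 2-fold below the median gene with a pseudocount of 1, at −0.82, or on the uncentred scale, at −0.75. *Pxd*, a peroxidase of the chorion, was listed at 0 in both libraries, although its span overlaps *Adsl*, which had 40.6 FPKM in the immunoprecipitate and 53.9 FPKM in the input.

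Among the genes for eggshell cues, *fs(1)N* stood apart. *fs(1)N* (Nasrat) is made in the germ line and goes into the vitelline membrane, where it is needed for eggshell integrity and for localising Torso-like at the egg poles. It had 7.38 FPKM in the immunoprecipitate and 32.3 FPKM in the input. Its occupancy of −2.46, relative to the median gene, was the lowest of the 19 genes and lay at percentile 1.21 of all genes, and it stayed between −2.51 and −2.03 under the other filters and scalings. The 3 follicle cell genes of this group were at or near 0. *tsl*, which encodes Torso-like, had 0.0744 FPKM in the immunoprecipitate and 0.0783 FPKM in the input. *ndl*, the protease Nudel that starts the dorsal-ventral cascade and hardens the vitelline membrane, had 0.0205 FPKM in the immunoprecipitate and 0.0433 FPKM in the input. *pip*, the ventral sulfotransferase Pipe, was listed at 0 in both libraries. The spans of *ndl* and *pip* overlap *MCU* and *fal*, which are expressed at higher levels.

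The genes that work with these cues were taken as a list of 6. *fs(1)M3* (Polehole) and *clos* (Closca) are the germ line partners of *fs(1)N* in the vitelline membrane. *fs(1)M3* had 31.4 FPKM in the immunoprecipitate and 47.2 FPKM in the input, an occupancy of −0.93. *clos* had 13.6 FPKM in the immunoprecipitate and 31.5 FPKM in the input, an occupancy of −1.55, but its span overlaps *RpL31* at 2868 FPKM in the immunoprecipitate and 4178 FPKM in the input. *fs(1)N*, *fs(1)M3* and *clos* were each more abundant than every vitelline membrane gene in both libraries, except that *fs(1)N* was close to *Vm32E* in the immunoprecipitate. *wbl*, an endoplasmic reticulum protein that Pipe needs in follicle cells, was at 0.109 FPKM in the immunoprecipitate and 0.114 FPKM in the input. Of the 5 listed partners above the filter, 1 (*clos*) lay 2-fold below the median gene, against 15.2% of all genes. Above it by 2-fold were 0, against 9.48% of all genes, and the median of the 5 was −0.92. The span of *clos* lies between 8000 and 16000 bp, where 28.6% of 567 genes were 2-fold below. Centred within bins of genomic span, *clos* was at −1.13 and the median of the 5 at −0.50. *fs(1)M3* and *wbl* were named after their values were seen. The highest of them was *sll*, a transporter of the sulfate donor, at −0.52.

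Yolk protein mRNAs were barely detected. *Yp1* had 1.02 FPKM in the immunoprecipitate and 1.12 FPKM in the input. *Yp2* had 0.883 FPKM in the immunoprecipitate and 1.58 FPKM in the input. *Yp3* had 0.478 FPKM in the immunoprecipitate and 0.656 FPKM in the input. All 3 were lower in the immunoprecipitate, and their order differed between the libraries, with *Yp1* first in the immunoprecipitate and *Yp2* first in the input. Relative to the median gene *Yp1* was at −0.48 and *Yp2* at −1.17. *Yp2* lost its place 2-fold below the median gene on the uncentred scale, at −0.84, and with a pseudocount of 1, at −0.76. The mRNA of the yolk receptor, *yl*, which the germ line makes, had 4.38 FPKM in the immunoprecipitate and 56.9 FPKM in the input, at −4.03. Of 7 genes of yolk uptake, all above the filter, 2 (*yl* and *Chc*, the clathrin heavy chain) lay 2-fold below the median gene. Above it by 2-fold were 0. The shares of all genes were 15.2% below and 9.48% above. Both *yl* and *Chc* span 4000 to 8000 bp, where 26.3% of 1174 genes were 2-fold below. The median of the 7 was 0.12, and the highest was *boca*, a chaperone for such receptors, at 0.82.

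The genes of the follicle cell surface and matrix were at or near 0. *Mmp2*, the matrix metalloproteinase that acts at follicle rupture, had 0.0817 FPKM in the immunoprecipitate and 0.167 FPKM in the input. *Cad99C*, a cadherin of the follicle cell microvilli that face the oocyte, was listed at 0 in the immunoprecipitate and had 0.0291 FPKM in the input. *Glut3* was listed at 0 in both libraries.

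The chorion clusters can also be compared with the genes next to them, taken here within 10 kb on either side. At 66D, *CG43965* lies on the *Cp18* side and had 54.8 FPKM in the immunoprecipitate and 111 FPKM in the input, close to the values of *Cp18*. It and the other neighbours were named after their values were seen, and its FPKM depends strongly on the assumed length because the gene is very short. The span of *CG43965* lies within that of *CG6511*, which had 4.64 FPKM in the immunoprecipitate and 6.35 FPKM in the input. Reads in the shared part may be counted for either gene. On the *Cp16* side, the muscle gene *Prm* had 0.0924 FPKM in the immunoprecipitate and 0.109 FPKM in the input. Farther out, *SrpRbeta* was higher in the immunoprecipitate, with 183 FPKM in the immunoprecipitate and 73.5 FPKM in the input. At 7F, the ovarian gene *otu* had 151 FPKM in the immunoprecipitate and 100.3 FPKM in the input, above *Cp36* in both. At 26A, 5 of 10 neighbours were listed at 0 in both libraries, and the highest was *chic*, the profilin gene, with 593 FPKM in the immunoprecipitate and 264 FPKM in the input.

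**Figure D4:**
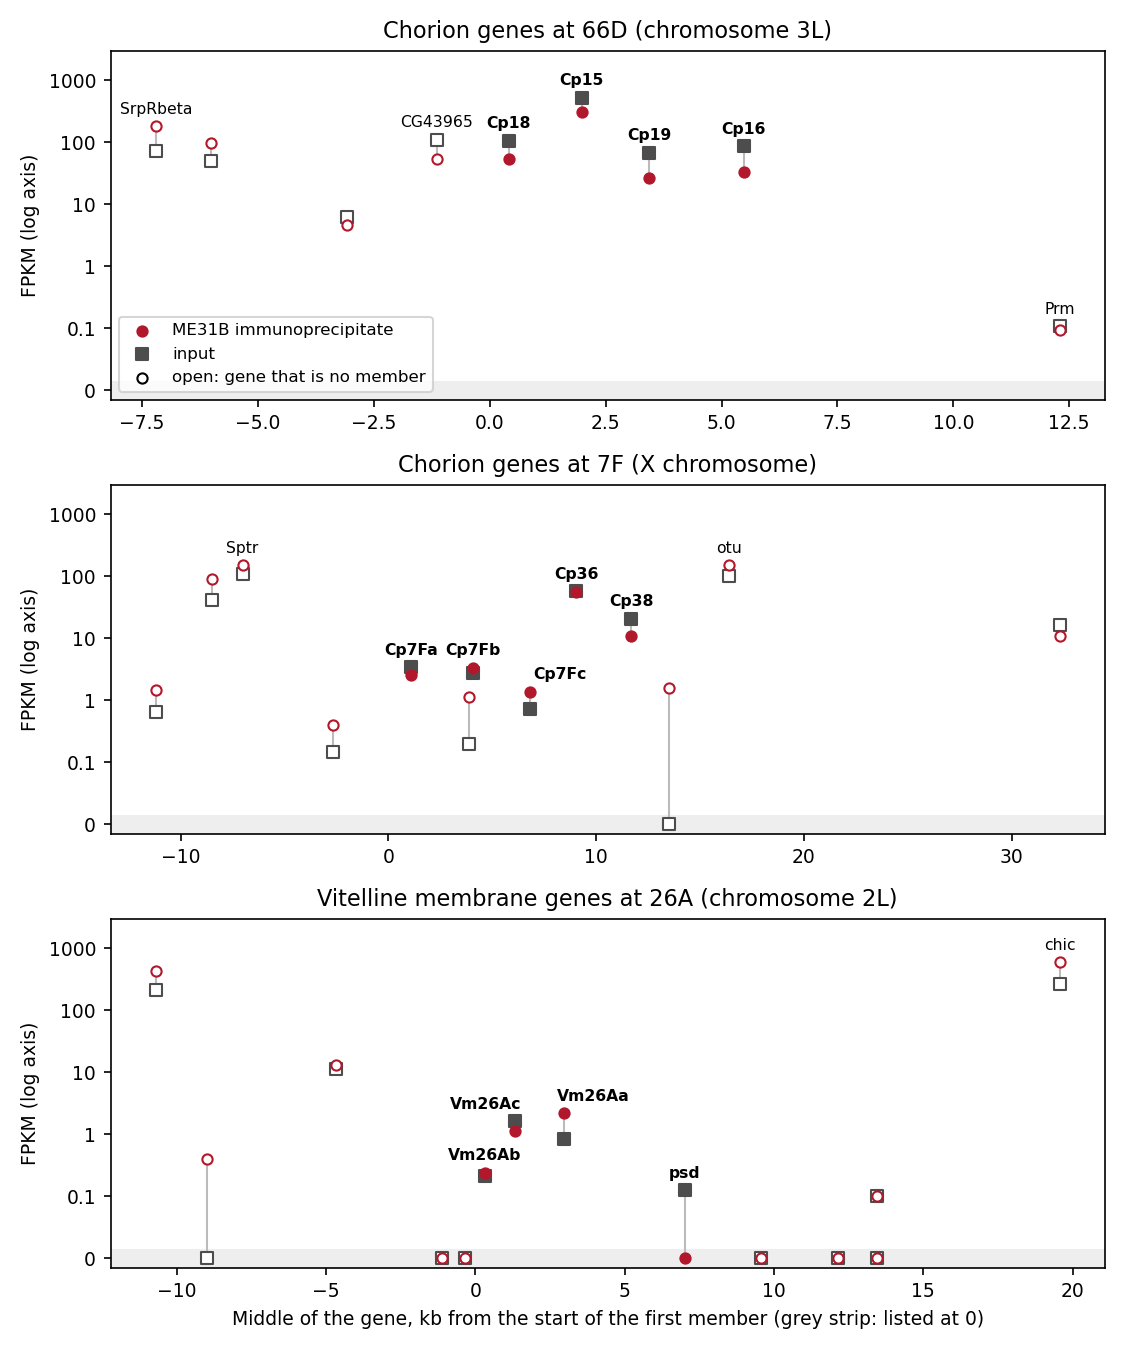
FPKM (log axis) of the genes at the 66D and 7F chorion clusters and the 26A vitelline membrane cluster, and of genes within 10 kb, against the distance in kb of the middle of each gene from the start of the first listed gene. Filled symbols are eggshell genes and open symbols other genes, with circles for the immunoprecipitate and squares for the input. All 4 genes at 66D and *Cp38* have the circle below the square, *Cp36* has both at the same place, and the 26A genes stay below 3 FPKM.

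Occupancy can be set beside that of other genes of the same genomic span or abundance. The 9 measured members with a span under 1000 bp had a median of −1.09, and 8 of them were below the median of all 859 genes of that span, 0.51. The 6 with a span of 1000 to 2000 bp had a median of −0.78, and 5 were below the median of 1805 such genes, 0.36. The 3 with a span of 2000 to 4000 bp were all below the median of 1852 such genes, −0.04. From 4000 to 8000 bp, the 1 member, *fs(1)N*, was below the median of 1174 such genes, −0.44. Among 1068 genes with an input of 100 to 1000 FPKM the median was 0.24, and both members in that range, *Cp15* and *Cp18*, were below it. Among 4462 genes with an input of 10 to 100 FPKM the median was 0.02, and all 5 members in that range were below it. Among 1065 genes with an input of 1 to 10 FPKM the median was −0.30, and 8 of 10 members were below it. Among 138 genes with an input of 0.5 to 1 FPKM the median was 0.45, and 0 of 2 members, *Vm26Aa* and *Cp7Fc*, were below it. Spans were read off the genome with introns included. Centred within bins of span, 11 of the 19 were at least 2-fold below, the 10 above and *Vm26Ac*, against 12.0% of 6836 genes, and 0 were 2-fold above, against 7.62%.

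Marker genes were used to check what the lysate held. All 15 germ line markers were present, from 10.8 to 4674 FPKM in the immunoprecipitate and from 5.38 to 920.8 FPKM in the input. Their median occupancy was 0.14. Past 2-fold on the upper side was 1 (*pgc*), against 9.48% of all genes. On the lower side were 0, against 15.2% of all genes, and *osk* came closest there at −0.998. Follicle cell genes outside the eggshell were nearly absent. Of 15 such genes, 14 were below 1 FPKM in both libraries, and 5 were listed at 0 in the immunoprecipitate and 6 in the input. The exception was *ttk*, a transcription factor that is not restricted to follicle cells, with 31.1 FPKM in the immunoprecipitate and 20.8 FPKM in the input. The list summed to 31.8 FPKM in the immunoprecipitate and 21.9 FPKM in the input, nearly all from *ttk*. The 4 genes of this list at 0 in both libraries were *eya*, *cas*, *mirr* and *br*. Others were detected at low levels. *Oamb* had 0.183 FPKM in the immunoprecipitate and 0.266 FPKM in the input. *peb* had 0.138 FPKM in the immunoprecipitate and 0.205 FPKM in the input. The part of follicle cells in the eggshell and yolk values was not tested.

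Some marker genes of other tissues were also detected, and the source of that RNA was not tested. The 12 muscle sheath markers summed to 8.01 FPKM in the immunoprecipitate and 8.31 FPKM in the input, none above 2.21 FPKM. The 6 gut enzymes summed to 23.2 FPKM in the immunoprecipitate and 36.0 FPKM in the input, led by *alphaTry* at 12.2 FPKM in the immunoprecipitate and 20.1 FPKM in the input. Of the 4 gut enzymes above the filter, 2 (*alphaTry* and *Jon25Bi*) lay past 2-fold on the lower side, against 15.2% of all genes. On the upper side were 0, against 9.48% of all genes, and the median of the 4 was −0.75. The gut enzymes did not all lie low: *Jon99Ci* was at −0.45 and *betaTry* at 0.84. *betaTry* had 1.77 FPKM in the immunoprecipitate and 0.786 FPKM in the input. On the uncentred scale *alphaTry* was at −0.72. The 7 fat body markers summed to 0.409 FPKM in the immunoprecipitate and 0.574 FPKM in the input, with *Fbp1*, *Fbp2*, *Lsp1gamma* and *Lsp1alpha* at 0 in both. All 7 haemocyte markers were at 0 in both libraries. Yolk protein mRNAs summed to 2.38 FPKM in the immunoprecipitate and 3.36 FPKM in the input. These sums were above those of the fat body markers and below those of the gut enzymes, over lists of unlike size. By gene the order was mixed, since the gut enzymes *Mal-A1* and *LManV* were below *Yp1* and *Yp2* in both libraries. The part of these tissues in the yolk and eggshell values was not tested.

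**Figure D5:**
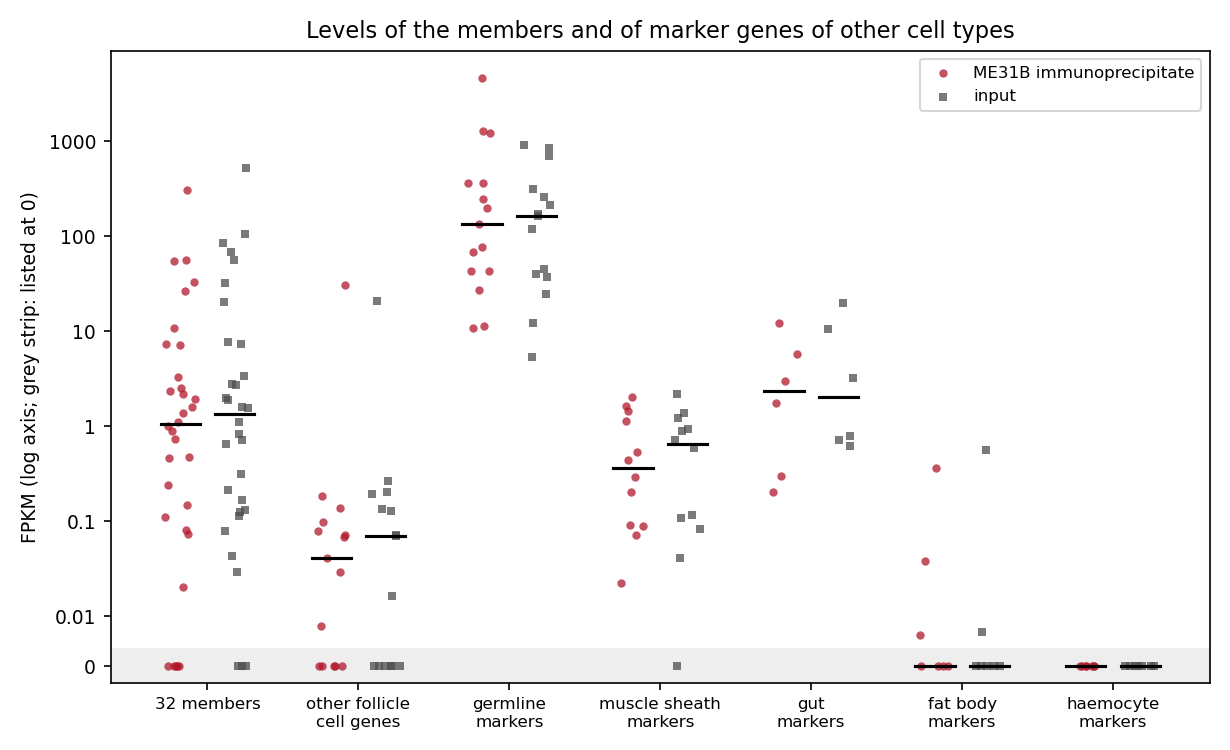
FPKM (log axis) of the 32 eggshell and yolk genes and of marker lists of follicle cells, germ line and other tissues, with the immunoprecipitate (red circles) left of the input (grey squares) for each list. Each point is 1 gene, the bars are medians and the grey strip holds genes listed at 0. The median germ line marker is at 134 FPKM in the immunoprecipitate and 164 FPKM in the input, and the median eggshell or yolk gene at 1.07 FPKM in the immunoprecipitate and 1.35 FPKM in the input.

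The machinery that amplifies chorion genes in follicle cells is also used for DNA replication in the germ line and embryo, and its mRNAs were compared as a list. All 14 listed genes were above the filter, from 5.66 to 455 FPKM in the immunoprecipitate and from 10.8 to 358 FPKM in the input. Their median occupancy was −0.46. At least 2-fold below the median gene were 3 (*mus101*, *mip130* and *chif*), or 21.4%, against 15.2% of all genes. None was 2-fold above, against 9.48% of all genes. Centred within bins of genomic span, the median of the list was −0.12. There *chif*, at −0.84, was no longer 2-fold below, while *mus101* and *mip130* still were. The highest was *E2f2*, a repressive E2F factor, at 0.52, and the lowest was *mus101*, a replication protein, at −1.55. The span of *E2f2* overlaps *Mpp6*, and reads in the shared part may be counted for either.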

How the data were processed

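RNA of stage 14 oocytes was measured in 1 ME31B immunoprecipitate and 1 input library, read as single ends of 50 bases. The authors' processing notes name bcl2fastq 2.17, STAR 2.5.2a, Cufflinks 2.2.1, R 3.1.2 and dm6, and the authors deposited FPKM per gene in 1 table. The annotation release, the strand setting and the number of reads were not stated in the labels or methods used here. Every column of per-sample values was used (0 left out). Genes above 0.5 FPKM in both libraries were kept, occupancy was the ratio of immunoprecipitate to input FPKM, and the median gene was set to 0 on the log2 scale. A fixed 2-fold rule replaced a test, which single libraries do not allow. Scripts used Python 3.11.15, pandas 2.3.3 and numpy 2.4.6 and were tested on simulated data. Gene positions came from the RefSeq gene table of Release 6, which matched 6836 of the 6886 kept genes.

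The members and lists were chosen with earlier results of these data known. Every member was described, and of each of the lists of other follicle cell genes, cue partners, chorion gene amplification and yolk uptake the highest and lowest gene by occupancy with an input of at least 1 FPKM were named, with *yl* as the yolk receptor. Other genes of these and of the marker lists were named after their values were seen. FPKM of short transcripts depends on the effective length assumed. Alternatives were other filters, pseudocounts, scalings, fold thresholds and centring within bins of genomic span.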

Additional observations from a re-analysis of the deposited data

How the results depend on the processing

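No paired analysis was possible because the immunoprecipitate and the input were 1 library each. Among the genes and list medians recomputed under 10 alternatives, the signs of *Cp7Fb*, *Vm34Ca* and the vitelline membrane median turned under 3 each: without a filter, without centring and with equal sums, where that median was 0.04, 0.09 and 0.01. Under those 3 settings, and not otherwise, more of all genes lay 2-fold above than below. The zero of the scale was lower in each of them: *pgc* was at 2.34, 2.34 and 2.27, against 2.01 in the main setting. The 3 settings are therefore not separate checks of these signs. Without a filter and with a pseudocount of 0.5, 1461 of 16863 genes were 2-fold above and 662 below the median gene. Of the 32 members, 4 were 2-fold below, against 3.93% of all genes, and 1 was above, against 8.66%. The 16863 genes include 7901 listed at 0 in the immunoprecipitate and 7859 listed at 0 in the input. A gene at 0 in both cannot be called, which lowers both shares of all genes, whereas only 3 members were at 0 in both. The medians there were −0.15 for all members, −0.24 for yolk genes and −0.60 for crosslinking genes. With a filter of 1 FPKM, 0 of 15 members were 2-fold above and 8 below, against 9.28% and 14.8% of 6669 genes. With a filter of 5 FPKM, 0 were above and 6 of 8 below, against 8.17% and 13.2% of 5963 genes. With a pseudocount of 1, 0 of 19 were above and 8 below, against 9.12% and 12.9% of all genes. Without centring, 1395 genes were above and 630 below, and 5 members were below. With the libraries scaled to the same sum, 1199 genes were above. At 1.5-fold, 1639 genes were above and 1808 below, or 23.8% and 26.3%, with 2 of 19 members above and 12 below. At 3-fold, 123 genes were above and 410 below, with 0 members above and 5 below. Centred within bins of span, 0 members were above, against 7.62% of 6836 genes. *Cp16*, *Cp19*, *Femcoat* and *fs(1)N* were 2-fold below under every filter that kept them and every scaling tried. Beyond the change of zero, the cause of these shifts was not tested. Low levels limit the vitelline membrane, crosslinking and yolk values most, since their depth is unknown.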
